A study of Mus musculus with 10 samples.

Results

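Genes of neutrophils and of monocytes recruited from blood, 10 in all, were followed in whole mouse liver after a week of napabucasin. They are the calgranulins S100a8 and S100a9, the lysozyme gene Lyz2, the monocyte surface gene Ly6c2, the receptors Csf3r, Fpr1 and Itgam, the chitinase-like gene Chil3 and the collagenase and gelatinase genes Mmp8 and Mmp9. The members were chosen by symbol, 10 of the 54532 genes in the count table, and all 10 were present with counts above 0. All but Mmp8, that is 9, had enough counts to be tested, among 14244 genes tested in all. The series holds RNA sequencing of liver from 5 mice given napabucasin (BBI608), a small-molecule quinone developed against STAT3 signalling, by gavage at 20 mg per kg of body weight daily for 7 days. The other 5 mice were given the vehicle alone, 1% NaCMC (sodium carboxymethyl cellulose), by the same route and for the same 7 days. The labels name no genotype, strain, sex or age, and call the 5 libraries of a group biological replicates. The study's stated question is which genes and pathways the drug affects in the liver and its microenvironment.

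Neutrophils are made in the bone marrow under the control of granulocyte colony-stimulating factor, which acts through the receptor encoded by Csf3r and signals through STAT3. They carry S100A8 and S100A9 as an abundant cytosolic pair (calprotectin), store lysozyme, MMP8 and MMP9 in granules, sense formylated bacterial peptides through FPR1 and adhere through the integrin CD11b, the product of Itgam. Monocytes with high Ly6C leave the blood for injured tissue, where they express Ly6c2, Chil3 and Lyz2. Healthy liver also holds resident macrophages, the Kupffer cells, and Lyz2, Itgam and Fpr1 are not restricted to neutrophils but are shared among phagocytes.

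The stretch of 250 bases before the transcription start is shown for the calgranulin pair, which varied together, and for 2 receptors, since PU.1 and C/EBP proteins are the classical regulators of myeloid promoters. Sequences are RefSeq's (GRCm38.p6), 5′ to 3′ on the gene's strand, and end at the base before the RefSeq start. S100a8 lies at chr3:90668821-90669070 on the plus strand, S100a9 at chr3:90695722-90695971 on the minus strand, Csf3r at chr4:126024409-126024658 and Itgam at chr7:128062390-128062639, both on the plus strand. Capitals mark matches to 3 motifs, searched on both strands. The PU.1 motif was GAGGAA, which reads TTCCTC when it lies on the opposite strand. The C/EBP motif was TTGCNNAA. The TATA box was searched as TATAAA.
S100a8: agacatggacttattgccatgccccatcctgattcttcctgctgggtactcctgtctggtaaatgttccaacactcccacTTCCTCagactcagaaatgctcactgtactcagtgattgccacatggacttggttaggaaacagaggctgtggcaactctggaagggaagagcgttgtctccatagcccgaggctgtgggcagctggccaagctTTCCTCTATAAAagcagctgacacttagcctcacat
S100a9: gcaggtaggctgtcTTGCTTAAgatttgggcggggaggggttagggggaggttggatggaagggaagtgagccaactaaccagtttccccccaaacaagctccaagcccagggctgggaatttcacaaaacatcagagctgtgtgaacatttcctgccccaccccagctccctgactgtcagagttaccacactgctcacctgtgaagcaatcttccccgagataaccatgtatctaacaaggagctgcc
Csf3r: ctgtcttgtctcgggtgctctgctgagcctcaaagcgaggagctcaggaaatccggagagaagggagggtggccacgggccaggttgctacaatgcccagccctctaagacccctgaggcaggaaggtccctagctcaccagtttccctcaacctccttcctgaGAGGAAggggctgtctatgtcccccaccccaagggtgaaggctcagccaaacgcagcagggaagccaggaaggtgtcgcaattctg
Itgam: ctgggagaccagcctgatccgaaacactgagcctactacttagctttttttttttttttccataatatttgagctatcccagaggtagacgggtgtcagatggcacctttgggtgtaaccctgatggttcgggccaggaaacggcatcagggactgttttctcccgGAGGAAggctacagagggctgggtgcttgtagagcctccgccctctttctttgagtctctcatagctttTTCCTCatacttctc

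The S100a8 window holds TATAAA 30 to 25 bases before the start, directly after a TTCCTC at 36 to 31, and another TTCCTC at 170 to 165. The S100a9 window holds TTGCTTAA 236 to 229 bases before the start. Csf3r has GAGGAA at 86 to 81, and Itgam has GAGGAA at 84 to 79 and TTCCTC at 15 to 10. By the coordinates of the count table, S100a8 starts at 90668978 and Csf3r at 126024550, both inside these RefSeq windows. The TATAAA of S100a8, the TTCCTC directly before it and the GAGGAA of Csf3r therefore lie within the counted genes. Of the 10 members, 9 were matched in the promoter table, and 5 of them (S100a8, Ly6c2, Csf3r, Itgam and Mmp8) held the PU.1 letters, which 23.3% of the 32851 windows of the same length hold. The C/EBP letters were found in 2 members, S100a9 and Mmp8 (9.56% of windows), TATAAA in 2, S100a8 and Fpr1 (12.4%), and the STAT letters TTCNNNGAA in 1, Chil3 (7.02%). The shares are per window, and a gene can have more than 1. Of the members' 10 windows, which overlap for Ly6c2, 6 held the PU.1 letters, and the other counts are the same by window. No match overlapped another. These matches are descriptions of the letters and not evidence of binding.

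Totals ran from 14124484 to 17759967 counts per vehicle library and from 15364342 to 17369118 per napabucasin library. A floor of 3 counts corresponds to 0.138 to 0.257 CPM (counts scaled to a common library size by TMM factors) across libraries. Mitochondrial genes took 7.03% to 19.0% of counts in vehicle and 9.03% to 19.9% in napabucasin livers. Genes of ribosomal RNA took 1.09% in each of napabucasin replicates 1 and 2 and 0.195% to 0.912% in the others. Vehicle replicate 1 and napabucasin replicate 5 had the highest summed red blood cell genes, 191 and 164 CPM against 14.9 to 97.3 CPM in the other 8 libraries, and the lowest summed Kupffer cell markers. No pair of libraries was a duplicate; the closest correlated at 0.974 in log2 CPM.

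Per unit of gene length, Lyz2 was by far the most abundant of the 10 in these livers and Mmp8 the least. The median over the 10 libraries was 162 FPKM (the deposited unit, which divides by gene length and depth) for Lyz2, 20.0 FPKM for S100a9, 12.6 FPKM for Fpr1, 4.73 FPKM for S100a8 and 4.37 FPKM for Csf3r. It was 1.84 FPKM for Ly6c2, 1.26 FPKM for Chil3, 0.812 FPKM for Itgam, 0.630 FPKM for Mmp9 and 0.178 FPKM for Mmp8. Lyz2 exceeded S100a9 in all 10 libraries, Csf3r exceeded Ly6c2 in all 10 and Mmp9 exceeded Mmp8 in all 10. The neighbours S100a8 and Csf3r did not differ beyond their spread, with S100a8 higher in 5 of 10 libraries, and Ly6c2 was above Chil3 in 6 of 10. S100a9 was above Fpr1 in 9 of 10 libraries. Each of Fpr1 against S100a8, Chil3 against Itgam and Itgam against Mmp9 held in 8 of 10. The place of Itgam in this order is uncertain, because another gene of the count table overlaps it on the same strand.

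Between the groups, no member passed the test, and Csf3r, the receptor for granulocyte colony-stimulating factor, was farthest from no difference. edgeR's quasi-likelihood test called 0 of the 9 tested members at an adjusted p under 0.05, and 0% of the 14244 genes. DESeq2 and limma-voom called 242 and 132 genes, with 0 members among them. At an unadjusted p under 0.05, 1 of 9 members was higher in napabucasin livers (Csf3r) and 0 were lower, beside 9.34% of all genes tested higher and 5.83% lower. Of the 9, 8 had a positive log2 fold change, and their median was 0.46, while 7139 of all 14244 genes (50.1%) were positive, with a median of 0.001. The 2 groups overlapped for all 10 members, whereas 2.15% of all genes tested had groups that did not overlap. With the replicate block, which pairs same-numbered libraries, 0 members were called and 4 had an unadjusted p under 0.05: S100a9 (0.0481), Ly6c2 (0.0244), Csf3r (0.0103) and Itgam (0.0370), with a smallest adjusted p of 0.133. All 4 were higher in napabucasin livers, as were 11.8% of all genes by that rule in the same fit. Leaving out napabucasin replicate 5 gave 3 members higher at an unadjusted p under 0.05, beside 10.7% of all genes, and leaving out both it and vehicle replicate 1 gave 2, Csf3r and Fpr1, beside 11.1%. Because these are whole-liver samples, a change in the number of cells of a type and a change in RNA per cell cannot be told apart in any value that follows.

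**Figure D1:**
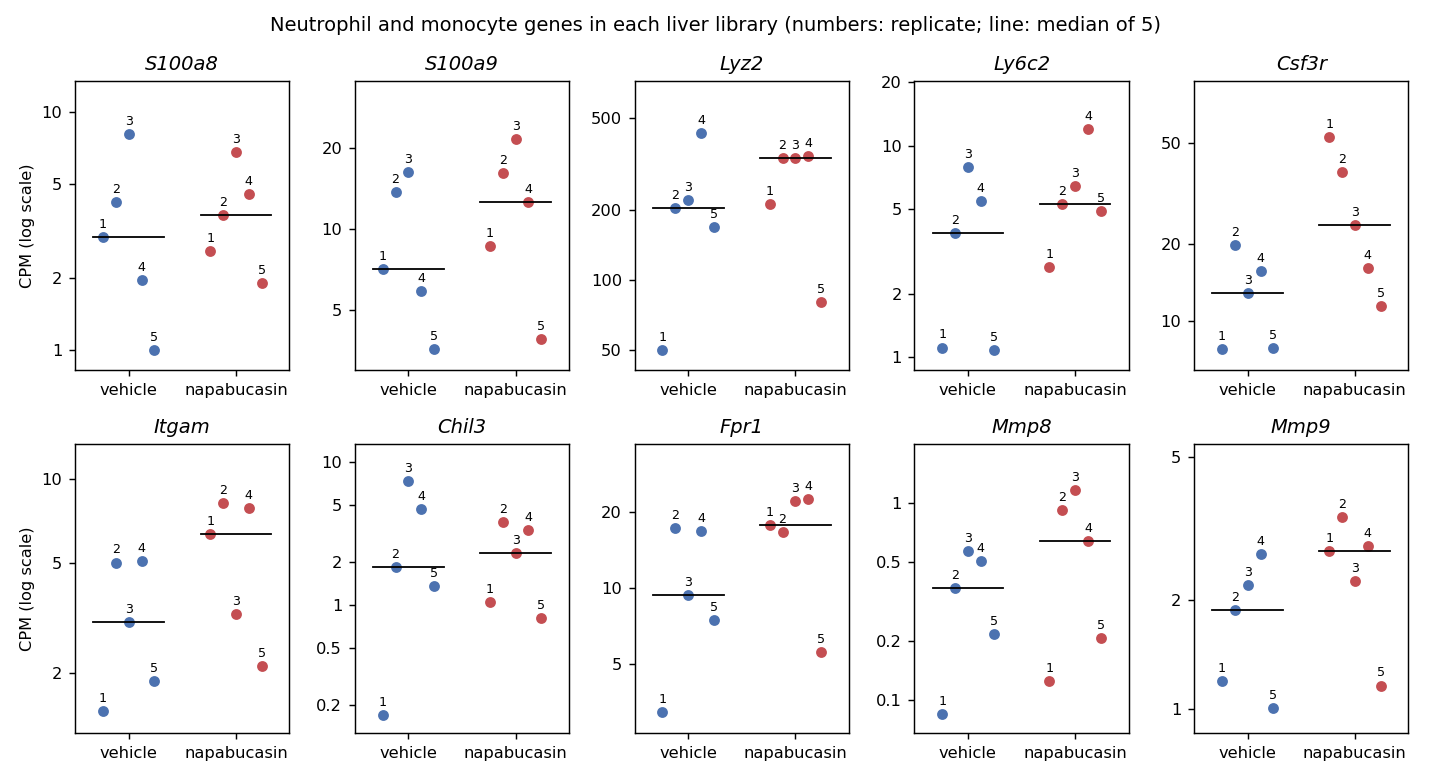
CPM (TMM library sizes, log scale) of the 10 genes in each of the 5 vehicle and 5 napabucasin livers; numbers are replicates and lines are the medians of 5. For every gene the 2 groups overlap, and vehicle replicates 1 and 5 and napabucasin replicate 5 lie at the low end of most panels.

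The calgranulins S100a8 and S100a9, calcium-binding proteins that form calprotectin and act as an alarm signal outside the cell, varied severalfold within each group, and their group means differed by less than that spread. S100a8 (chromosome 3, 90668978 to 90670035, GRCm38) measured 2.99, 4.18, 8.10, 1.97 and 1.01 CPM in vehicle replicates 1 to 5 and 2.62, 3.68, 6.80, 4.54 and 1.92 CPM in the napabucasin replicates. Replicate 3 was the highest and replicate 5 the lowest in both groups, and no napabucasin liver exceeded the highest vehicle liver. Group means were 3.65 ± 2.75 CPM with vehicle against 3.91 ± 1.90 CPM with the drug (SD, n = 5 each), and edgeR estimated a log2 fold change of 0.10 (SE 0.48, 95% interval -0.93 to 1.14, adjusted p = 0.927). Its direction was not stable: leaving out 1 library gave -0.19 (without napabucasin replicate 3) to 0.62 (without vehicle replicate 3).

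S100a9 (chromosome 3, 90692632 to 90695721) is the partner that dimerises with S100A8, and the 2 genes lie 22596 bases apart on opposite strands. It measured 7.10, 13.7, 16.3, 5.90 and 3.59 CPM in vehicle replicates 1 to 5 and 8.67, 16.2, 21.7, 12.6 and 3.90 CPM in the napabucasin replicates. Replicates 2 and 3 were high and replicate 5 lowest in both groups. Group means were 9.32 ± 5.43 CPM with vehicle against 12.6 ± 6.83 CPM with the drug (SD, n = 5 each), and edgeR estimated a log2 fold change of 0.44 (SE 0.45, 95% interval -0.53 to 1.40, adjusted p = 0.633). Across the 10 libraries S100a8 and S100a9 formed the closest pair among the 9 tested members, with a Pearson r of 0.92 and a Spearman rho of 0.93 in log2 CPM. This is a description over libraries that share depth and tissue makeup.

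Csf3r (chromosome 4, 126024550 to 126044440) measured 7.78, 19.9, 12.9, 15.7 and 7.83 CPM in vehicle replicates 1 to 5 and 52.7, 38.3, 23.9, 16.1 and 11.4 CPM in the napabucasin replicates. A total of 3 napabucasin livers (replicates 1, 2 and 3) were above every vehicle liver, while replicates 4 and 5 lay within the vehicle range. Group means were 12.8 ± 5.21 CPM with vehicle against 28.5 ± 16.9 CPM with the drug (SD, n = 5 each), and edgeR estimated a log2 fold change of 1.15 (SE 0.39, 95% interval 0.30 to 1.99, unadjusted p = 0.0113, adjusted p = 0.256). The 2 highest livers, napabucasin replicates 1 and 2, are those with 1.09% of counts in ribosomal RNA genes, and their mitochondrial shares were 19.9% and 15.3%. Vehicle replicate 1 had a mitochondrial share of 19.0% and the lowest Csf3r of all 10 livers, 7.78 CPM. By ribosomal RNA share, vehicle replicate 2 had the highest of its group, 0.912%, and the highest vehicle Csf3r, 19.9 CPM. Vehicle replicate 5 had the lowest share, 0.195%, and 7.83 CPM. Napabucasin replicate 5, at a share of 0.455%, had the lowest Csf3r of its group, 11.4 CPM. Without napabucasin replicates 1 and 2, a choice made after seeing the data, the log2 fold change was 0.41 (SE 0.34, edgeR unadjusted p = 0.254). In that fit 0 members had an unadjusted p under 0.05, beside 3.58% of all genes higher. The part of RNA quality in the difference was not tested. Without vehicle replicate 1 and napabucasin replicate 5, also chosen after seeing the data, it was 1.20 (SE 0.37, edgeR unadjusted p = 0.0070, adjusted p = 0.142).

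Its ligand gene was near absent. Csf3, which encodes granulocyte colony-stimulating factor, had 0 counts in all 5 vehicle livers and in 3 napabucasin livers, and at most 0.0623 CPM in the others, under the floor of 3 counts. Stat3, which carries the receptor's signal and is the protein that napabucasin is described as inhibiting, averaged 108 ± 30.0 CPM with vehicle and 91.6 ± 8.81 CPM with the drug (SD, n = 5 each; log2 fold change -0.23, SE 0.20, edgeR adjusted p = 0.578).

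Fpr1 (chromosome 17, 17876471 to 17883940), the receptor for formylated peptides, measured 3.25, 17.3, 9.45, 16.8 and 7.47 CPM in vehicle replicates 1 to 5 and 17.8, 16.8, 22.1, 22.6 and 5.61 CPM in the napabucasin replicates. Napabucasin replicates 1 to 4 lay between 16.8 and 22.6 CPM, in the upper part of the range, and napabucasin replicate 5 was below 4 of the 5 vehicle livers. Group means were 10.9 ± 6.09 CPM with vehicle against 17.0 ± 6.86 CPM with the drug (SD, n = 5 each), and edgeR estimated a log2 fold change of 0.64 (SE 0.42, 95% interval -0.27 to 1.54, adjusted p = 0.464). Its related receptor Fpr2 had an estimate of 0.65 (SE 0.41, edgeR adjusted p = 0.448), and Fpr3 had no count in any library. By the coordinates of the count table, Fpr2 and Fpr3 overlap on the same strand, so their separate values are uncertain.

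Itgam (chromosome 7, 128062640 to 128118491) encodes the alpha chain of the integrin Mac-1. It measured 1.45, 5.01, 3.06, 5.06 and 1.87 CPM in vehicle replicates 1 to 5 and 6.36, 8.22, 3.26, 7.85 and 2.12 CPM in the napabucasin replicates. Napabucasin replicates 1, 2 and 4 were above every vehicle liver, and replicates 3 and 5 were within the vehicle range. Group means were 3.29 ± 1.70 CPM with vehicle against 5.56 ± 2.74 CPM with the drug (SD, n = 5 each), and edgeR estimated a log2 fold change of 0.74 (SE 0.43, 95% interval -0.17 to 1.66, adjusted p = 0.406). Itgb2, its obligate beta chain (CD18), averaged 26.3 ± 10.5 against 51.5 ± 21.9 CPM (log2 fold change 0.97, SE 0.38, unadjusted p = 0.0224, edgeR adjusted p = 0.285). The beta chain is shared with other leukocyte alpha chains, of which Itgal of lymphocytes and monocytes gave 0.92 (unadjusted p = 0.0477) and Itgax of dendritic cells 0.82 (unadjusted p = 0.00504), neither past the adjusted threshold. By length, Itgb2 measured the higher, at a median of 11.5 FPKM against 0.812 FPKM for Itgam and 8.81 FPKM for Itgal. Another gene overlaps Itgam on the same strand, and reads that fit both may be missing from its value, so its level against the other chains is uncertain.

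Lyz2 (chromosome 10, 117277331 to 117282321), the lysozyme of macrophages, monocytes and neutrophils, measured 50.2, 204, 221, 430 and 168 CPM in vehicle replicates 1 to 5 and 211, 336, 336, 342 and 80.5 CPM in the napabucasin replicates. The single highest liver was vehicle replicate 4, and the lowest liver of each group stood well under the other 4. Group means were 215 ± 137 CPM with vehicle against 261 ± 115 CPM with the drug (SD, n = 5 each), and edgeR estimated a log2 fold change of 0.28 (SE 0.47, 95% interval -0.73 to 1.29, adjusted p = 0.777). Leaving out 1 library moved it to 0.01 (vehicle replicate 1 left out) at the lowest and 0.70 (vehicle replicate 4 left out) at the highest. The near-identical gene Lyz1, which can share reads with Lyz2, was at most 0.379 CPM.

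Ly6c2 (chromosome 15, 75108158 to 75111970), which encodes the surface protein that marks inflammatory monocytes, measured 1.11, 3.86, 7.96, 5.51 and 1.08 CPM in vehicle replicates 1 to 5 and 2.68, 5.30, 6.47, 12.0 and 4.93 CPM in the napabucasin replicates. Vehicle replicates 1 and 5 were below every napabucasin liver and napabucasin replicate 4 above every vehicle liver, with the other 7 intermixed. Group means were 3.90 ± 2.95 CPM with vehicle against 6.27 ± 3.47 CPM with the drug (SD, n = 5 each), and edgeR estimated a log2 fold change of 0.68 (SE 0.52, 95% interval -0.44 to 1.79, adjusted p = 0.522). Without napabucasin replicate 4 it was 0.30, and without vehicle replicate 3 it was 1.09. Its close paralog Ly6c1 was at most 2.16 CPM, and reads of the 2 genes can be shared, so their separate values are uncertain. Ccr2, the chemokine receptor that brings these monocytes out of the marrow, averaged 6.57 ± 2.59 against 7.68 ± 3.63 CPM (log2 fold change 0.22, SE 0.35, edgeR adjusted p = 0.759).

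Chil3 (chromosome 3, 106147554 to 106167564), which encodes a secreted chitinase-like protein of monocytes and alternatively activated macrophages, was the 1 tested member with a negative estimate. It measured 0.171, 1.84, 7.39, 4.66 and 1.36 CPM in vehicle replicates 1 to 5 and 1.06, 3.79, 2.32, 3.37 and 0.821 CPM in the napabucasin replicates. All 5 napabucasin livers lay inside the vehicle range. Vehicle replicate 1 had 2 counts, under the floor. Group means were 3.09 ± 2.92 CPM with vehicle against 2.27 ± 1.33 CPM with the drug (SD, n = 5 each), and edgeR estimated a log2 fold change of -0.44 (SE 0.66, 95% interval -1.86 to 0.99, adjusted p = 0.753), and without vehicle replicate 3 it was 0.16. On the log2(FPKM + 0.1) scale it was 0.02. Its near-identical paralog Chil4 had no count in any library.

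The 2 proteases had the lowest median FPKM of the members. Mmp9 (chromosome 2, 164940780 to 164955850), gelatinase B of neutrophil tertiary granules, measured 1.20, 1.88, 2.20, 2.70 and 1.01 CPM in vehicle replicates 1 to 5 and 2.74, 3.41, 2.27, 2.83 and 1.16 CPM in the napabucasin replicates. Napabucasin replicates 1, 2 and 4 were above the highest vehicle liver, by small margins for replicates 1 and 4. Group means were 1.80 ± 0.70 CPM with vehicle against 2.48 ± 0.84 CPM with the drug (SD, n = 5 each), and edgeR estimated a log2 fold change of 0.46 (SE 0.36, 95% interval -0.32 to 1.24, adjusted p = 0.534). Timp1, a secreted inhibitor of MMP9, averaged 0.503 ± 0.353 against 0.992 ± 0.365 CPM (log2 fold change 1.00, SE 0.52, edgeR adjusted p = 0.374).

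Mmp8 (chromosome 9, 7558456 to 7568485), the neutrophil collagenase, had 1, 8, 8, 9 and 3 counts in vehicle and 2, 17, 21, 12 and 3 counts in napabucasin replicates 1 to 5. Its counts were too low for the count filter, and vehicle replicate 1 and napabucasin replicate 1 were under the floor of 3 counts. Napabucasin replicates 2, 3 and 4 were above every vehicle liver at 0.920, 1.16 and 0.641 CPM. In the fit with no filter on low counts its log2 fold change was 0.76 (SE 0.69, edgeR adjusted p = 0.572). A difference was not detectable at this depth.

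**Figure D2:**
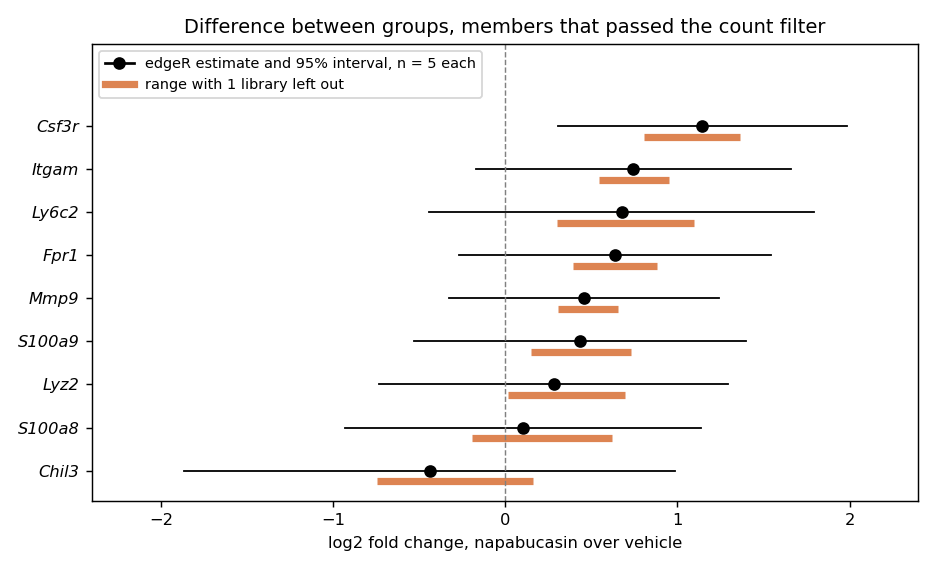
Log2 fold change of the 9 tested genes, napabucasin over vehicle (x axis), with the edgeR estimate as a point, its 95% interval as a black line and the range with 1 library left out as an orange bar. The interval for Csf3r, 0.30 to 1.99, is the only one of the 9 that does not span 0, and the left-out ranges of S100a8 and Chil3 cross 0.

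The spread between livers of a group was larger for these genes than for most. The median within-group SD of log2 CPM over the 9 tested members was 0.903, against 0.410 over all 14244 genes and 0.371 over the 11401 genes whose mean lies in the members' range of 2.14 to 238 CPM. All 9 were above both medians. From the lowest to the highest liver, the 8 members other than Chil3 and Mmp8, which had libraries under the floor of 3 counts, spanned 2.56-fold (Csf3r) to 8.56-fold (Lyz2) in vehicle and 2.93-fold (Mmp9) to 5.56-fold (S100a9) in napabucasin livers.

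The same livers were low for most members. Napabucasin replicate 5 was among the 3 lowest livers for 9 of the 10 members, and vehicle replicates 1 and 5 were each among the 3 lowest for 8 of 10. Vehicle replicate 1 was the lowest for 6 members and vehicle replicate 5 for the other 4. Among the 3 highest, napabucasin replicates 2 and 4 appeared for 7 members each, napabucasin replicate 3 for 6, and vehicle replicate 3 and napabucasin replicate 1 for 4 each.

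These 3 livers were also the lowest in genes of resident macrophages. The summed 12 Kupffer cell markers were 509 CPM in vehicle replicate 1, 756 CPM in napabucasin replicate 5 and 1153 CPM in vehicle replicate 5, against 1353 to 2119 CPM in the other vehicle and 2165 to 2383 CPM in the other napabucasin livers. The 24 genes common to phagocytes summed to 337, 522 and 699.6 CPM in the same 3 livers and to 977 CPM or more in the others. None of the 12 Kupffer markers was at 0 in all libraries. A positive log2 fold change between groups was found for 10 of 12 (median 0.58), beside 50.1% of all genes tested. An unadjusted p under 0.05 in edgeR was found for 1 higher and 1 lower gene, beside 9.34% and 5.83% of all genes tested. The part of macrophage content in the members' differences was not tested.

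Members differed in how closely they followed the summed Kupffer markers over the 10 libraries, given here as descriptions of log2 CPM with the value after leaving out vehicle replicate 1 and napabucasin replicate 5. Fpr1 followed closely (Pearson r 0.98, Spearman rho 0.87, r 0.94 without the 2), as did Itgam (0.88, 0.93 and 0.85). Lyz2 had r 0.90 and rho 0.73, and a lower r of 0.49 without the 2 libraries. Chil3 had r 0.68 and rho 0.45 but r -0.13 without them, so its relation rests on those 2 libraries. Csf3r had 0.77, 0.85 and 0.79 and Mmp9 had 0.82, 0.88 and 0.76. S100a8 followed least (0.36, 0.43 and 0.39), with S100a9 at 0.60, 0.53 and 0.57 and Ly6c2 at 0.57, 0.50 and 0.49.

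**Figure D3:**
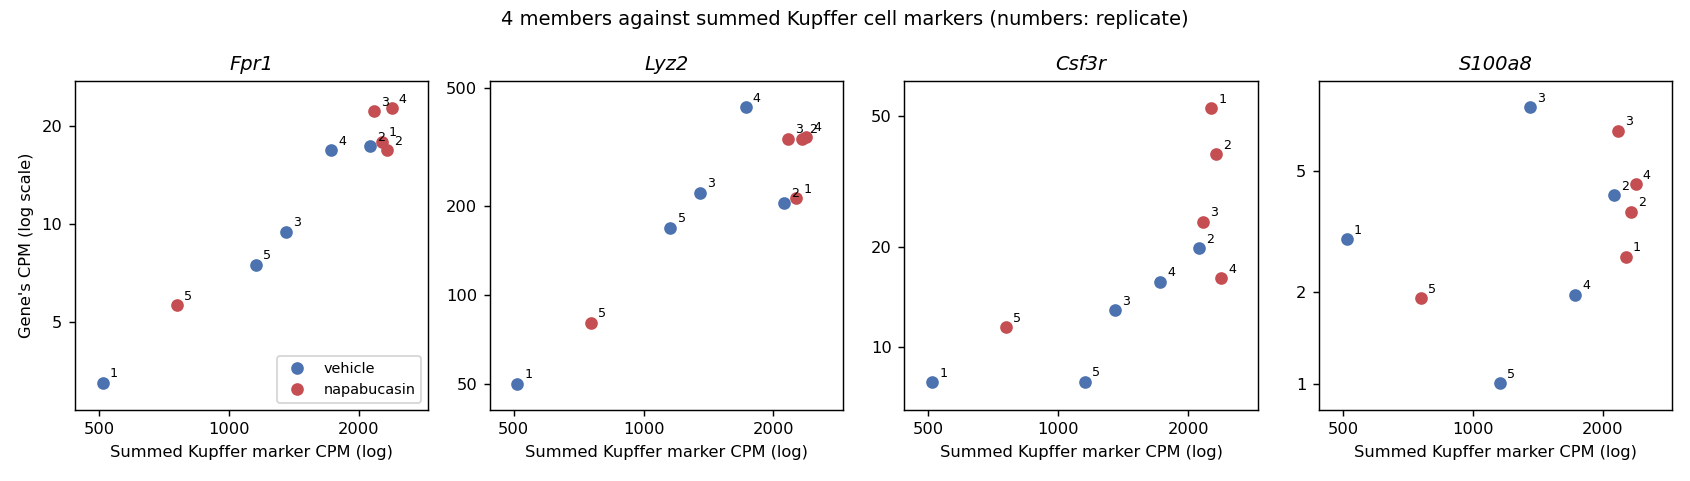
CPM of 4 genes (y axis, log scale) against the summed CPM of 12 Kupffer cell markers (x axis, log scale), with 1 point per liver, coloured by group and numbered by replicate. Fpr1 rises along with the marker sum (r 0.98), Lyz2 likewise up to vehicle replicate 4, Csf3r spreads from 16.1 to 52.7 CPM among the napabucasin livers with the highest sums, and S100a8 shows little relation (r 0.36).

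Members also differed in how closely they followed each other. After the calgranulin pair, the closest were Lyz2 with Fpr1 (r 0.91, rho 0.68), Itgam with Mmp9 (0.91 and 0.93), Itgam with Fpr1 (0.86 and 0.72) and Lyz2 with Chil3 (0.85 and 0.83). The lowest were S100a8 with Lyz2 (r 0.29, rho 0.37) and Csf3r with Chil3 (r 0.30, rho 0.30). Over all tested genes that are not members, S100a8 was most alike to Prtn3, a neutrophil serine protease (r 0.94, rho 0.92), followed by Nol3, Gm5093, Mien1 and Igha (r 0.89 to 0.91). Lyz2 was most alike to Siglece, a sialic acid receptor of myeloid cells (r 0.97, rho 0.95), then Ctsb, Tgfb1, Hcls1 and Ankfy1 (r 0.95 to 0.96). Itgam was most alike to BC035044 (r 0.95, rho 0.94), Fcna, Ppfia4, Gpr65 and Epb41l3, with r of 0.94 or above. For Csf3r, looked up after its values were seen, the closest was Arhgef2 (r 0.98, rho 1), then Adcy7, Ehbp1l1, Naip6 and Naip5 (r 0.97 or above).

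**Figure D4:**
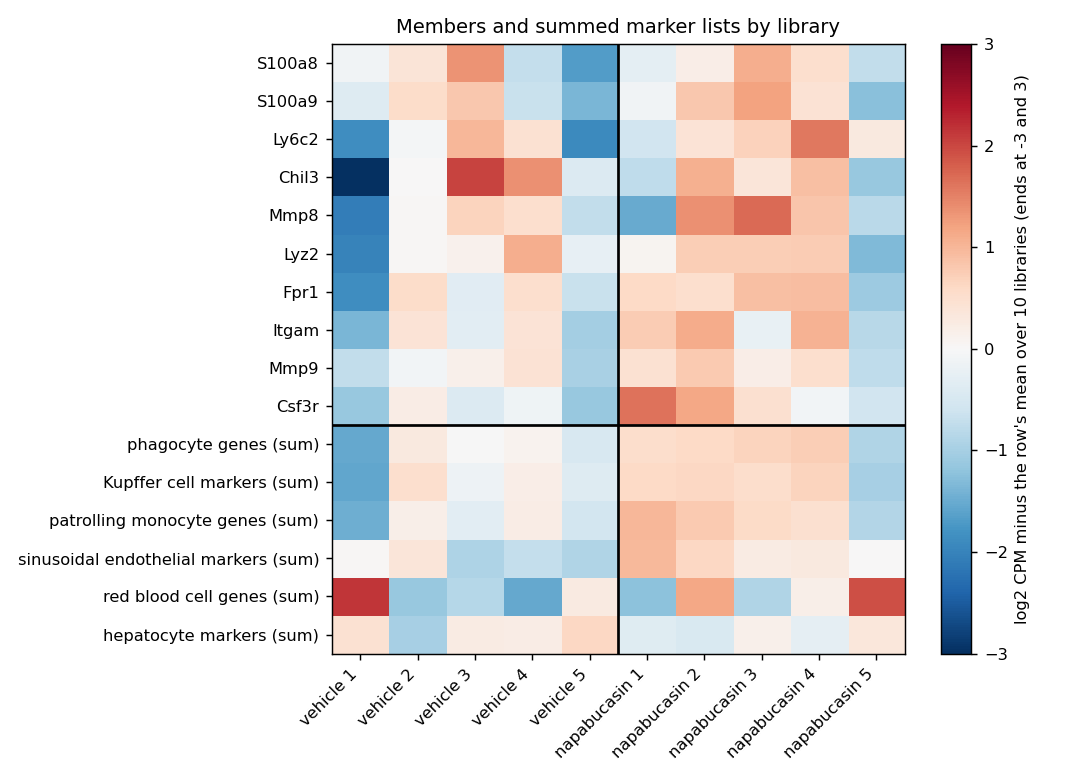
Log2 CPM of the 10 genes and of 6 summed marker lists (rows) in each liver (columns), as the difference from the row's mean over 10 libraries. Vehicle replicate 1 and napabucasin replicate 5 are low in most member rows and in the phagocyte and Kupffer rows, and high in the red blood cell row.

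Of the genes that define neutrophils, Ly6g lay at the limit of detection and the others were low but mostly above it in both groups. Ly6g, whose product is the standard surface marker of mouse neutrophils, was at 0 to 0.169 CPM, that is at or under the floor of 3 counts. Cxcr2, the receptor for neutrophil chemokines, averaged 1.08 ± 0.78 CPM with vehicle and 1.49 ± 0.94 CPM with the drug, and Retnlg, a mature neutrophil gene, 1.29 ± 1.21 and 1.55 ± 0.94 CPM (SD, n = 5 each). Granule genes of neutrophil precursors were low and uneven, with Mpo at 0 to 8.82 CPM, Elane at 0.0855 to 3.46 CPM, Ltf at 0.0855 to 5.90 CPM, Camp at 0.0718 to 3.06 CPM and Ngp at 0.499 to 12.2 CPM. Their log2 fold changes were 0.77 (Mpo), 0.60 (Elane), -0.37 (Ltf), -0.44 (Camp) and -0.58 (Ngp), with adjusted p of 0.677 to 0.847 in edgeR, and each changed sign when 1 library was left out. The Kupffer marker Clec4f had a median of 151 FPKM, against 1.03 FPKM for Ccr2, 0.394 FPKM for Cxcr2 and 0.381 FPKM for Mpo.

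Other neutrophil granule genes had no single direction. In the granule list 10 of 13 genes were tested, 4 higher and 6 lower (median -0.22). An unadjusted p under 0.05 in edgeR was found for 1 higher and 1 lower gene, beside 9.34% and 5.83% of all genes tested. The lower one was Wfdc21, an antibacterial secreted protein gene, at 252 ± 129 CPM with vehicle and 111 ± 49.4 CPM with the drug (log2 fold change -1.18, SE 0.37, edgeR adjusted p = 0.237). Wfdc21 and Lcn2, which hepatocytes also express, held most of that list's counts. The higher one was Adam8, a leukocyte surface protease, at a log2 fold change of 0.86 (edgeR adjusted p = 0.288).

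In the neutrophil surface and activation list 13 of 25 genes were tested, all 13 with a positive estimate (median 0.45). At an unadjusted p under 0.05 in edgeR, 2 of the 13 were higher. Over all genes tested, 50.1% were positive and 9.34% were higher at that p. Slfn4, an interferon-induced gene of myeloid cells, measured 3.85, 9.87, 5.19, 5.34 and 1.65 CPM in vehicle replicates 1 to 5 and 23.1, 15.7, 21.9, 19.3 and 16.4 CPM in the napabucasin replicates. Every napabucasin liver was above every vehicle liver (log2 fold change 1.88, SE 0.35, unadjusted p = 9.7e-05, edgeR adjusted p = 0.157). Slfn4 passed the threshold in DESeq2 (adjusted p = 0.000164), limma-voom (0.0185) and edgeR with no filter (0.0323). Il1b, the inflammatory cytokine, gave 0.93 (edgeR adjusted p = 0.402), and 0.31 without napabucasin replicate 2.

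Of the classical monocyte list 12 of 13 genes were tested, 10 higher and 2 lower (median 0.22). Beside 9.34% of all genes tested, 1 of the 12 was higher at an unadjusted p under 0.05 in edgeR. That gene, Ms4a4c, a membrane protein of Ly6C-high monocytes that B and T cells can also express, measured 3.16, 4.36, 5.33, 5.23 and 2.30 CPM in vehicle replicates 1 to 5 and 10.5, 8.39, 14.8, 14.2 and 6.77 CPM in the napabucasin replicates. The groups did not overlap, and the estimate was 1.42 (SE 0.29, unadjusted p = 0.000258, edgeR adjusted p = 0.157). It passed the threshold in DESeq2 (adjusted p = 0.0023), limma-voom (0.0470) and edgeR with no filter (0.0346). Plac8 gave 0.68, Gpr141 0.76 and Cd14, the endotoxin co-receptor, 0.52, with adjusted p of 0.373 to 0.506 in edgeR.

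The list of patrolling monocytes, the Ly6C-low cells that crawl along vessel walls, had all 9 genes tested, 7 higher and 2 lower (median 0.82). Beside 9.34% of all genes tested, 5 of the 9 were higher at an unadjusted p under 0.05 in edgeR. They were Itgax, Nr4a1 (the transcription factor these cells need, 0.74), Spn (0.82), Eno3 (0.95) and Itgal, with adjusted p of 0.228 to 0.326 in edgeR. Itgax is also in the dendritic cell list, and Itgal is a gene of lymphocytes as well, so these are not specific to patrolling monocytes. Eno3 rested on napabucasin replicate 1, at 31.9 CPM against 5.75 to 14.1 CPM in the other 4, and was 0.32 without it. Cx3cr1, the receptor that marks patrolling monocytes, gave -0.13 (edgeR adjusted p = 0.879).

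Of the 22 recruitment signals 11 were tested, 8 higher and 3 lower (median 0.09). An unadjusted p under 0.05 in edgeR was found for 0 higher genes and 1 lower gene, beside 9.34% and 5.83% of all genes tested. The lower one was Cx3cl1, the membrane-bound ligand of CX3CR1, at 2.78 ± 1.15 and 1.41 ± 0.74 CPM (log2 fold change -0.98, edgeR adjusted p = 0.302), and -0.68 with an unadjusted p of 0.122 without vehicle replicate 4. Cxcl1, a neutrophil chemokine, ranged from 7.83 to 221 CPM in vehicle and from 8.23 to 77.3 CPM in napabucasin livers; its log2 fold change of -0.89 (edgeR adjusted p = 0.603) was 0.28 without vehicle replicate 2. Vcam1 gave 0.59 and Ccl7 0.48. Il17a had no count in any library, and Il6, Csf2, Cxcl3, Cxcl5, Ccl4, Ccl8 and Ccl12 were among the 11 not tested.

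Among the 23 partners of the members 18 were tested, 13 higher and 5 lower (median 0.34). The 3 with an unadjusted p under 0.05 in edgeR were Itgb2, Itgal and Itgax, all higher, beside 9.34% of all genes tested. Itgal and Itgax were also counted in the patrolling monocyte list, and Itgb2 is also counted among the phagocyte genes that follow. Mmp14, a membrane-bound protease, gave -0.68 (edgeR adjusted p = 0.360). All 24 genes common to phagocytes were tested and had a positive estimate (median 0.70), beside 50.1% of all genes tested. At an unadjusted p under 0.05 in edgeR, 8 of the 24 were higher, beside 9.34% of all genes tested. Fcgr1, the high-affinity IgG receptor, gave 1.05 (edgeR adjusted p = 0.266), Ptprc, the pan-leukocyte CD45, 0.92 and Lst1 0.85. Of 10 granulopoiesis regulators 9 were tested, 7 higher and 2 lower (median 0.46). Cebpa, a regulator of granulocyte progenitors that is also abundant in hepatocytes, averaged 193 ± 21.0 CPM with vehicle and 121 ± 37.6 CPM with the drug, with no overlap (log2 fold change -0.68, SE 0.23, unadjusted p = 0.0115, edgeR adjusted p = 0.256). Irf8, which directs progenitors to monocytes, gave 0.79 (unadjusted p = 0.0140), Spi1, which encodes PU.1, 0.72 and Klf4 0.55, none past the adjusted threshold.

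Genes of other liver cell types had estimates mostly of 1 sign. All 10 T cell genes (median 1.29, sums of 12.3 to 19.8 CPM in vehicle and 22.6 to 51.0 CPM in napabucasin livers) and all 10 B cell genes (median 1.13, sums of 42.9 to 66.8 and 86.8 to 162 CPM) had positive estimates, with 8 and 9 at an unadjusted p under 0.05. So had all 10 sinusoidal endothelial, all 10 stellate cell and all 10 dendritic cell genes (medians 0.66, 0.69 and 0.82), 7 of 8 natural killer genes (0.89) and the 3 tested platelet genes (0.97). Over all genes tested, 50.1% were positive and 9.34% were higher at an unadjusted p under 0.05 in edgeR. All 10 hepatocyte genes had negative estimates (median -0.37), with sums of 54023 to 164743 CPM in vehicle and 77878 to 136578 CPM in napabucasin livers. No gene of any of these lists passed the adjusted threshold in edgeR, and the part of cell makeup in the members' differences was not tested. The red blood cell genes, of which 4 were tested, gave 0 with an unadjusted p under 0.05.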

How the data were processed

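Per the labels' protocols, poly(A) RNA from the livers of 10 mice, 5 per group, was sequenced. Deposited counts are whole numbers of reads per gene that the authors did not normalize; CASAVA, HISAT2 2.0.5 and featureCounts 1.5.0-p3 were used with GRCm38 (mm10), per the submitters' processing notes. Neither strand setting nor annotation is given in the sources used here, and overlapping genes were not separated. Among the members only Itgam overlaps another gene of the table, the protein-coding Gm49368 on the same strand. Gm49368 had 8 counts in all and Itgam 776. How reads that fit both genes were counted is not stated. The 8 counts therefore do not show how many reads the genes share, and the level of Itgam is uncertain. The deposited FPKM values, made by the authors from the same counts, served to compare levels between genes. Per the file headers, symbols and coordinates are those of the count table.

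The test was edgeR 4.0.16 (R 4.3.3) on the counts: filterByExpr, TMM scaling and a robust quasi-likelihood fit on treatment alone, with Benjamini-Hochberg adjustment over 14244 genes and a threshold of 0.05. SEs are those implied by the F statistic, 95% intervals use its t quantile, and log2 CPM uses a prior count of 2. No label says more of how the replicates were kept apart, so the p-values speak for the spread among these 10 libraries, and floors cover counting error only. edgeR's common biological coefficient of variation was 0.325. The procedure was tested on simulated data in which genes varied independently, so that test does not cover genes that shift together across livers.

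The members and the 19 gene lists (237 names, 1 of them not matched) were chosen with earlier results of these data known. Named genes are all members, up to 4 genes of each of the 8 neutrophil, monocyte and phagocyte lists with the smallest p, a set of defining genes and partners whatever their values, and the 5 genes most correlated with S100a8, Lyz2 and Itgam; Lcn2, Clec4f, Cx3cr1 and the genes alike to Csf3r were named after their values were seen. Results for 1 gene under this rule are not reported here. Alternatives were a non-robust fit, other normalizations and filters, DESeq2 1.42.0, limma 3.58.1 (voom with quality weights, and log2(FPKM + 1) or log2(FPKM + 0.1), with a mean of at least 0.5 FPKM or no filter), a replicate block, each library left out and, chosen after the data were seen, 2 pairs of libraries left out. What the replicate numbers stand for is not in the labels. Same-numbered libraries deviated together from their group means (r 0.154, 0.227, 0.208, 0.270 and 0.278). The main fit did not use the numbers, and only the replicate block treated them as pairing, from the data alone. Some libraries were closer to another number: vehicle replicate 1 to napabucasin replicate 5 (r 0.281) and vehicle replicate 2 to napabucasin replicate 1 (r 0.241).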

Additional observations from a re-analysis of the deposited data

Results flagged for a closer look

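Values that stood far from the other 4 of their group were looked for in 138 groups of 5, by the gap to the nearest value as a share of the range (Dixon's 95% limit). Past it were 11 values. A rate of 1 in 20 would give 6.9, but that rate is for independent normal values, which CPM of genes sharing libraries need not be. No member was among the 11. In vehicle replicate 3, Ngp measured 12.2 CPM (the other 4 vehicle livers 0.770 to 2.15), Ltf 5.90 CPM (0.0855 to 0.731) and Mpo 4.90 CPM (0 to 1.41), all genes of neutrophil precursors, and this liver had the highest S100a8 of all 10, 8.10 CPM. Its summed B cell genes, 66.8 CPM, were also apart (42.9 to 48.5). In napabucasin replicate 2, Mpo measured 8.82 CPM (the other 4 napabucasin livers 0.312 to 2.38) and Elane 3.46 CPM (0.249 to 0.684). In napabucasin replicate 5, the summed phagocyte genes were 522 CPM (1421 to 1642) and the summed Kupffer markers 756 CPM (2165 to 2383). Vehicle replicate 4 had 4.83 CPM of Cx3cl1 (2.05 to 2.39) and a stellate cell sum of 505 CPM (357 to 393). Vehicle replicate 1 had a red blood cell sum of 191 CPM (14.9 to 51.9).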

How the results depend on the processing

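In every setting run, 0 members were called, and the members' median log2 fold change stayed positive, 0.31 to 0.70 with 1 library left out, when 7 to 9 of the 9 were positive. The number of genes called moved from 0 to 1 with library size as the only scaling, 19 with no filter on low counts, 242 in DESeq2 (174 higher), 132 in limma-voom (98 higher), 1 with log2(FPKM + 0.1), 14 without vehicle replicate 1 and napabucasin replicate 5 together, and from 0 to 18 with 1 library left out (18 without vehicle replicate 1, 3 without napabucasin replicate 5). With the replicate block it was 0, and the block changed no other call. Library size as the only scaling gave 1407 higher and 361 lower genes at an unadjusted p under 0.05 and moved the median of all genes to 0.07.

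Of the single genes' values under other settings, 1076 kept direction and side of the threshold, 6 passed it (Slfn4 and Ms4a4c) and 32 changed sign, none past the threshold; the cause was not tested. With 1 library left out, ranges that cross 0 were -0.19 to 0.62 (S100a8), -0.75 to 0.16 (Chil3), -0.85 to 0.61 (Ngp), -1.34 to 0.28 (Cxcl1), -0.41 to 1.75 (Mpo), -0.48 to 1.09 (Elane), -0.86 to 1.35 (Ltf), -0.74 to 0.34 (Camp), -0.0505 to 0.79 (Retnlg), -0.0667 to 0.39 (Ccr2) and -0.39 to 0.43 (Ly6c1). In limma-voom, Ngp was 0.0416, Cxcl1 0.56, Ltf 0.0368, Camp 0.31 and Ly6c1 -0.0099. With log2(FPKM + 0.1), Chil3 was 0.0229 and Camp 0.22. With the replicate block Ltf was 0.33. Ly6c1 was -0.0031 with library size only, -0.0085 with no filter and -0.33 without vehicle replicate 1 and napabucasin replicate 5. Without napabucasin replicates 1 and 2 together, Eno3 was -0.0352, Mpo -0.10, Elane -0.25 and Ly6c1 -0.31. Depth limits Mmp8, Ly6g, Csf3 and Lyz1, which lie at or near 3 counts in several libraries.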

Other observations

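Prtn3, the serine protease gene whose pattern was closest to that of S100a8, was far more abundant in these livers than the other azurophil granule genes Mpo and Elane, which lies next to it on chromosome 10. Its median was 8.77 FPKM, against 0.381 FPKM for Mpo and 0.604 FPKM for Elane. It measured 16.7, 60.4, 127, 11.1 and 2.23 CPM in vehicle replicates 1 to 5 and 9.60, 22.8, 109, 14.2 and 8.28 CPM in the napabucasin replicates. As for S100a8, replicate 3 was the highest and replicate 5 the lowest of both groups. The groups overlapped (log2 fold change -0.41, SE 0.92, edgeR adjusted p = 0.842). Plppr3, on the opposite strand, overlaps Prtn3 and had 369 counts in all, against 6461 for Prtn3.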
